A study of Mus musculus with 6 samples.

Results

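B cells carry on their surface a receptor made of an antibody molecule and a signalling pair, CD79A and CD79B, and the RNA of that pair was followed here with that of 7 other genes by which B cells are recognised. The 9 genes are Cd79a, Cd79b, Ms4a1, Cd22, Fcer2a, Fcmr, Spib, Pax5 and Cr2, taken by name from the 35434 genes of a table of mouse large intestine RNA. The study gave mice with inflammatory bowel disease regulatory T cells, either control cells (Ctrl-Tregs) or cells named Lenv-Tregs, which the title calls lenvatinib-treated, and sequenced RNA of the large intestine. Lenvatinib is an inhibitor of several receptor tyrosine kinases. The samples are titled int 2-1, int 2-2, int 2-3, int 3-1, int 3-2 and int 3-3, so that int 2 and int 3 hold 3 libraries each. The labels do not say which of the numbers 2 and 3 is which transfer. Every difference is therefore given as int 3 against int 2, and no transfer is assigned to either. The strain, sex and age of the mice, how the disease was induced, and whether each library is an animal of its own are not given in the sources used here. The p-values therefore rest on the scatter of these libraries alone, which may be technical.

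Binding of antigen to the receptor leads to phosphorylation of the tails of CD79A and CD79B, and kinases and adaptors carry the signal on. The transcription factor PAX5 holds cells to the B lineage and acts at genes such as Cd79a. In the large intestine B cells gather mainly in lymphoid follicles of the wall, where naive B cells, germinal centre cells, T cells and stromal cells lie beside follicle epithelium, and plasma cells lie in the lamina propria outside them.

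All 9 genes were lower in every int 3 library than in any int 2 library. The members' median level, set against the int 2 mean of each gene, was 15.8% in int 3-1, 3.24% in int 3-2 and 30.5% in int 3-3. The order int 3-3, int 3-1, int 3-2 from high to low held for each of the 9 genes. It held for 23.9% of all 12525 genes tested. Values are FPKM, fragment counts scaled to the length of the gene and the total of the library, and tested genes are those that reached an FPKM of 1 in 3 or more of the 6 libraries. The test was limma on log2(FPKM + 1), with p-values adjusted by Benjamini-Hochberg over all tested genes and called at 0.05. Group means were subtracted on that scale to give the log2 change, a scale that makes changes look smaller where FPKM is low. In that test all 9 genes fell, against 6.70% of all tested genes, and all 9 had groups that did not overlap, with int 3 below int 2, against 17.9% of all tested genes. The 9 genes were listed together with earlier results of these data known, so the count describes them and is not independent evidence. The 3 int 2 libraries, where the levels are high, were enough for each of the 9 genes to meet the filter. Only Cd79a, Cd79b and Spib also reached an FPKM of 1 in all 3 int 3 libraries. The other 6 did so in 1 or 2 int 3 libraries, except Fcer2a, which did so in none. When int 2-1, int 2-2, int 2-3 or int 3-1 was left out, 3 of the 9 passed, namely Cd22, Fcer2a and Spib, and without int 3-2 or int 3-3 all 9 did. In bulk tissue fewer B cells and less RNA per B cell cannot be told apart.

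**Figure D1:**
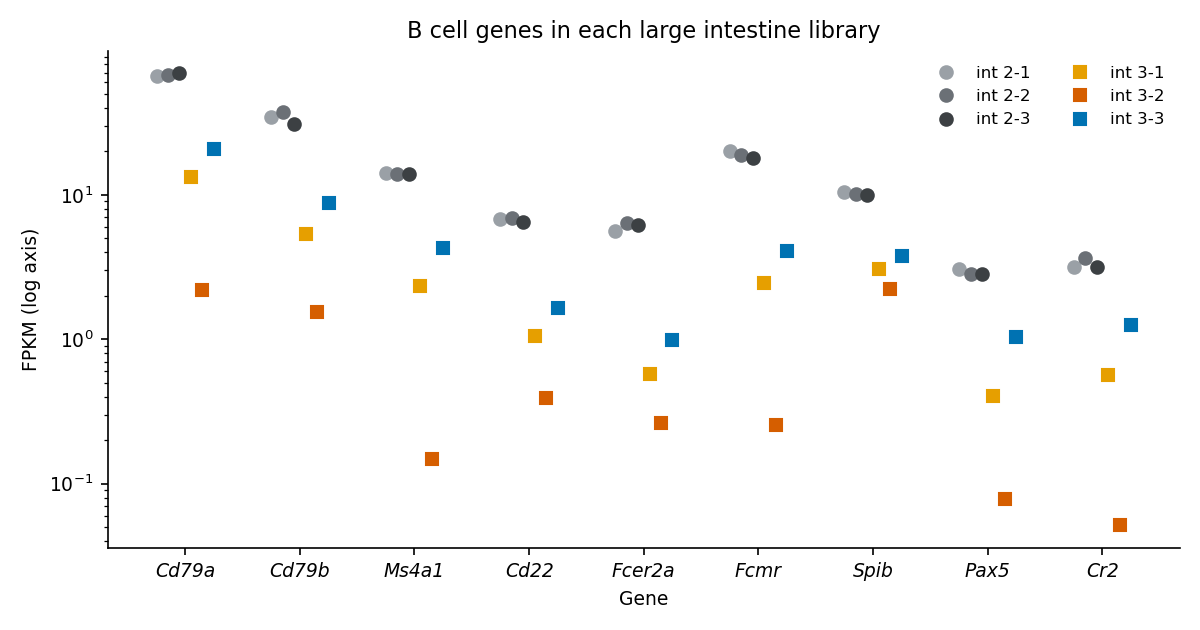
FPKM of each of the 9 genes (log axis) in the 3 int 2 libraries (circles) and the 3 int 3 libraries (squares). The int 2 points lie close together above all int 3 points, and int 3-2 is the lowest library for every gene, down to 0.0516 FPKM for Cr2.

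The libraries were of even depth, 34021820 to 35060599 fragments as recovered from the steps in the FPKM values, with int 3-2 the lowest. Over the tested genes the log2 difference between libraries had an SD of at most 0.115 within int 2 and of 0.271 to 0.513 within int 3. Hoxb13, which marks the distal end of the large intestine, read 288, 285 and 288 FPKM across int 2-1, int 2-2 and int 2-3, against 146, 16.4 and 267 across int 3-1, int 3-2 and int 3-3, which is the same order within int 3 as that of the B cell genes. The part of the sampled site along the intestine in the results was not tested. Of 10 epithelial genes 0 passed in limma's test or in voom (0 at an unadjusted p under 0.05), and their summed level was 7873 to 7894 FPKM in int 2 and 6768 to 9215 in int 3.

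The signalling pair of the receptor had the highest FPKM of the set in every library but int 3-2. There Spib stood above both, within counting error of Cd79a. Cd79a, which encodes Ig-alpha, stood at 66.6, 67.6 and 69.4 FPKM across int 2-1, int 2-2 and int 2-3, against 13.2, 2.20 and 20.8 across int 3-1, int 3-2 and int 3-3. The int 2 libraries were nearly equal and all int 3 libraries lay below them, int 3-2 by far the most. The means were 67.9 ± 1.40 and 12.1 ± 9.37 FPKM (SD, n = 3 libraries each), a 5.62-fold lower mean in int 3 (log2 change -2.79, SE 0.67, limma adjusted p = 0.0397). Cd79b, which encodes Ig-beta, stood at 34.6, 37.4 and 30.8 FPKM in the int 2 libraries against 5.40, 1.55 and 8.78 in those of int 3. It repeated the pattern of Cd79a, and the mean was 6.54-fold lower (log2 change -2.70, SE 0.46, limma adjusted p = 0.0138). The FPKM of Cd79a was 1.93, 1.81 and 2.25 times that of Cd79b in the int 2 libraries. In int 3-1, int 3-2 and int 3-3 it was 2.44, 1.42 and 2.37 times. Each int 3 ratio lay outside the int 2 values, in int 3-2 below them and in the others above. The difference in this ratio was not tested.

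Cr2, Cd22 and Ms4a1, which encode surface proteins that act beside the receptor, fell too. Cr2, which encodes complement receptor 2 and, in mice, also complement receptor 1, is carried by B cells and by follicular dendritic cells. It stood at 3.15, 3.67 and 3.17 FPKM in the int 2 libraries against 0.570, 0.0516 and 1.26 in those of int 3. The value of int 3-2 rests on 13 fragments (95% Poisson interval 0.0275 to 0.0882 FPKM, counting error only), and the other int 3 libraries lay between it and int 2. The log2 change was -1.48 (SE 0.27, limma adjusted p = 0.0160). Cd22, a sialic acid binding receptor that inhibits the receptor signal, stood at 6.84, 6.92 and 6.53 FPKM in the int 2 libraries against 1.06, 0.390 and 1.65 in those of int 3. Its int 3 values lay far below int 2 and spanned 4.23-fold, against 24.5-fold for Cr2, and the log2 change was -1.98 (SE 0.22, limma adjusted p = 0.0036). Ms4a1, which encodes the surface protein CD20, stood at 14.2, 13.9 and 13.9 FPKM in the int 2 libraries against 2.34, 0.148 and 4.27 in those of int 3. The int 3-3 value was 28.9 times that of int 3-2, the widest gap within int 3 among the 9 genes, and the log2 change was -2.46 (SE 0.52, limma adjusted p = 0.0271).

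Both Fc receptors of the set were among the genes that lost most. Fcmr, which encodes the receptor for IgM, stood at 20.2, 18.8 and 18.1 FPKM in the int 2 libraries against 2.44, 0.256 and 4.09 in those of int 3. Its log2 change of -2.84 (SE 0.48, limma adjusted p = 0.0134) was the fourth lowest of all tested genes. Fcer2a, which encodes CD23, the low-affinity receptor for IgE of mature B cells and follicular dendritic cells, stood at 5.66, 6.35 and 6.20 FPKM in the int 2 libraries against 0.571, 0.265 and 0.983 in those of int 3. No int 3 library reached 1 FPKM, and the fold between the means was the largest of the 9, 10.01-fold lower in int 3 (log2 change -2.16, SE 0.16, limma adjusted p = 0.00097).

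Both transcription factors of the set fell as well, with similar log2 changes but a larger fold between the means for Pax5. The difference between them was not tested. Pax5 was the least abundant gene in int 2, at 3.08, 2.81 and 2.82 FPKM, and stood at 0.406, 0.0787 and 1.04 in int 3. The 22 fragments behind the int 3-2 value give a 95% Poisson interval of 0.0493 to 0.119 FPKM. The mean of Pax5 was 5.71-fold lower in int 3 (log2 change -1.42, SE 0.22, limma adjusted p = 0.0105). Spib, which encodes Spi-B, an ETS factor needed for B cell responses that is also used by M cells of the follicle epithelium and by plasmacytoid dendritic cells, stood at 10.49, 10.23 and 10.04 FPKM in the int 2 libraries against 3.06, 2.22 and 3.80 in those of int 3. Its int 3 libraries lay closer together than those of any other of the 9 genes, with an SD of 26.2% of the mean against 59.4% to 96.8%. The mean was 3.39-fold lower (log2 change -1.50, SE 0.14, limma adjusted p = 0.0020).

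Set against each gene's int 2 mean, the 9 genes kept different shares in the same library. In int 3-2, Ms4a1 kept 1.06% (95% Poisson interval 0.592 to 1.74%), Fcmr 1.35% (0.717 to 2.30%) and Cr2 1.55% (0.825 to 2.65%). In the same library Cd79b kept 4.53% (3.49 to 5.77%) and Cd22 5.77% (4.41 to 7.41%), above the intervals of the first 3 genes. Spib kept 21.6% (19.1 to 24.4%), and its level per length there was 1.01 times that of Cd79a, where in int 2 it was 0.145 to 0.157 times. The intervals treat the int 2 mean as fixed and cover counting error only, not the spread between libraries. In int 3-3 the shares lay closer together, from 16.2% (13.7 to 19.0%) for Fcer2a to 37.9% (33.9 to 42.3%) for Cr2, and in int 3-1 from 9.40% (7.48 to 11.7%) for Fcer2a to 29.9% (26.9 to 33.1%) for Spib. Fcer2a thus stood lowest of the 9 in int 3-1 and int 3-3 but not in int 3-2. Differences between genes in these shares were not tested.

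**Figure D2:**
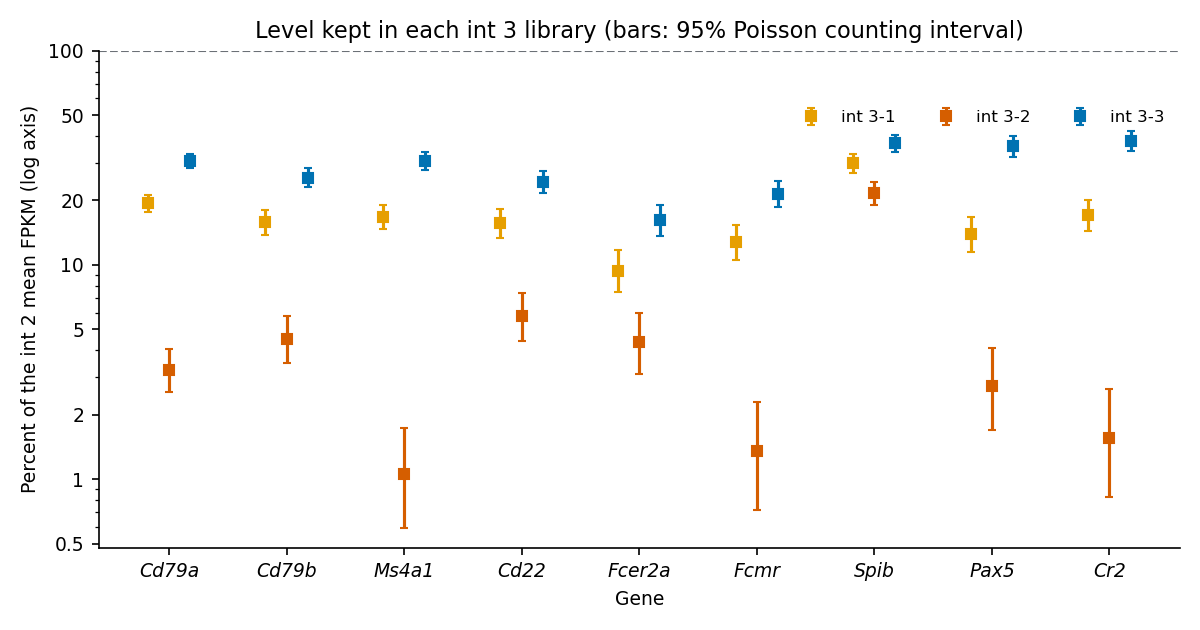
Level of each gene in the 3 int 3 libraries as a percentage of its int 2 mean FPKM (log axis, dashed line at 100), with 95% Poisson intervals for counting error. Spib lies between 21.6% and 37.1%, while Ms4a1 spans 1.06% to 30.5%.

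Levels per length had the same order in all 3 int 2 libraries, namely Cd79a, Cd79b, Fcmr, Ms4a1, Spib, Cd22, Fcer2a, Cr2 and Pax5, and no neighbours in this order overlapped in their ranges over int 2. In int 3-1 Spib moved up from rank 5 to 3 and the order of the other 8 stayed. In int 3-2 Spib was the highest of the 9, and in int 3-3 Ms4a1 stood above Fcmr and Fcer2a was lowest. The int 3-1 value lay between those of int 3-2 and int 3-3 for each of the 9 genes, which held for 73.5% of all tested genes. It stood 34.1% of the way from int 3-2 to int 3-3 for Pax5, 42.6% for Fcer2a, 42.8% for Cr2 and 53.2% to 59.0% for the other 6 genes.

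RefSeq promoter windows of 300 bases, from 250 before to 50 after a gene start, were at hand for 7 of the 9 genes in build GRCm38.p6. The deposited values were made on GRCm39, so positions below are those of the sequences alone. Shown are Cd79a, with the highest mean FPKM, Fcmr, with the lowest log2 change, and Spib, which kept the largest share in int 3-1 and int 3-2. Capitals mark matches, on either strand, to short words of B cell factors, and bases are counted from 1 at the 5′ end of the window.
Cd79a (chr7:24897247-24897546, plus strand): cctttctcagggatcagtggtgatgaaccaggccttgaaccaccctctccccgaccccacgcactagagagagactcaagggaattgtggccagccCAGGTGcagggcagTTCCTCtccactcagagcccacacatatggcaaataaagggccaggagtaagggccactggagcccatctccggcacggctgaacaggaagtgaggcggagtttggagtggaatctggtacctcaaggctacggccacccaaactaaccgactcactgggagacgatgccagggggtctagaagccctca
Fcmr (chr1:130865527-130865826, plus strand): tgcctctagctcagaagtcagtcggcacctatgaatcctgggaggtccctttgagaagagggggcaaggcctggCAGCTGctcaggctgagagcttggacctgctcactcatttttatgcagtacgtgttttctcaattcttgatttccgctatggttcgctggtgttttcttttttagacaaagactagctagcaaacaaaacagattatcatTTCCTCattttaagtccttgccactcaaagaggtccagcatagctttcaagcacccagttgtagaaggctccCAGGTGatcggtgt
Spib (chr7:44532022-44532321, minus strand): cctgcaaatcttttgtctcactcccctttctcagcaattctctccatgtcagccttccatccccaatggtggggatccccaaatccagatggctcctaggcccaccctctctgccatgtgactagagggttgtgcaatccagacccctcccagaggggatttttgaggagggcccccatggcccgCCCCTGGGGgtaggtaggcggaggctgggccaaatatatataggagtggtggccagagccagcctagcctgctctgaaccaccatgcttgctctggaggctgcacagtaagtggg

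The words were CCCNNGGG for EBF1, ATTTGCAT for the octamer of OCT factors, GAGGAA for Spi-B and PU.1, and CAGCTG or CAGGTG for E proteins. The Cd79a window held an E protein word at bases 97 to 102 and a Spi-B word, read on the other strand, at bases 111 to 116. Fcmr held E protein words at bases 75 to 80 and 287 to 292 and a Spi-B word on the other strand at bases 215 to 220. Spib held overlapping EBF1 words at bases 186 to 193 and 187 to 194. An E protein word stood in the windows of 5 of the 7 genes, Cd79a, Cd22, Fcmr, Fcer2a and Cr2, and in 32.9% of all 32851 windows. The EBF1 word stood in windows of 2 of the 7 (Cd22 and Spib; 13.7% of all windows) and the Spi-B word in windows of 2 (Cd79a and Fcmr; 28.3%), and the octamer was found in windows of 0 of the 7 (1.74%). Fcer2a has 3 windows, of which only the second held E protein words, so the 7 genes have 9 windows. Counted by window, as the shares of all windows are, 5 of the 9 held the E protein word. The EBF1 word stood in 2 of the 9 windows, the Spi-B word in 2 and the octamer in 0. A match describes the letters in a window and is not a measured binding site, and nothing follows about a factor where no word was found.

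Genes that pass on or hold back the receptor signal moved less evenly than the 9. Of 22 tested genes of receptor signalling 12 fell and 10 did not pass, with a median log2 change of -0.38 against 0.0338 for all tested genes. Without int 2-1, int 2-2, int 2-3 or int 3-1 the number that fell was 4, 4, 4 and 6. Plcg2, a phospholipase activated by the receptor, fell from 5.94 ± 0.541 to 2.45 ± 0.274 FPKM and Pik3cd, a catalytic subunit of phosphoinositide kinase, from 3.09 ± 0.0846 to 1.75 ± 0.186 (limma adjusted p = 0.0017 and 0.0057). The 3 most abundant genes of the list did not pass, with Cd81, a membrane protein of the tetraspanin family, at 68.3 ± 1.81 and 62.7 ± 5.66 FPKM, the adaptor gene Blnk at 38.3 ± 0.668 and 44.9 ± 2.96, and Bcl10, which links the receptor to NF-kB, at 34.7 ± 1.84 and 38.3 ± 2.52 (limma adjusted p = 0.283, 0.0547 and 0.218). The Src family kinases differed among themselves, an example chosen after the values were seen. Blk, a kinase found mainly in B cells, fell from 4.57 ± 0.650 to 0.734 ± 0.551 FPKM, with 0.746, 0.178 and 1.28 in the int 3 libraries (log2 change -1.73, limma adjusted p = 0.0072). Lyn, which myeloid cells use too, stood at 7.88, 8.77 and 8.66 and at 8.84, 8.28 and 8.68, with overlapping groups (limma adjusted p = 0.806).

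Of 9 inhibitors of the receptor signal 6 fell and 3 rose. Siglecg, a sialic acid binding relative of Cd22, fell from 3.01 ± 0.334 to 0.333 ± 0.281 FPKM, and Cd72 and the phosphatase gene Ptpn6 fell by 0.99 and 1.13 on the log2 scale (limma adjusted p = 0.0024, 0.0023 and 0.0029). Siglecg, below the filter in all 3 int 3 libraries, was tested because of int 2 alone. Fcgr2b, the inhibitory Fc receptor of B cells and macrophages, rose from 4.03 ± 0.0894 to 9.49 ± 1.29 FPKM, and Lilrb4a, an inhibitory receptor of myeloid cells, from 1.10 ± 0.0908 to 3.50 ± 0.404 (limma adjusted p = 0.0019 and 0.0012). The remaining rise was that of Pirb (log2 change 0.41, limma adjusted p = 0.0397), a myeloid and B cell receptor named because it completes the count. Pirb did not pass in 8 of 14 alternatives (adjusted p = 0.0330 to 0.153 over them), among them voom, median-of-ratios scaling, the replicate block and leaving out int 2-1, int 2-2, int 2-3 or int 3-2. Pirb and Lilrb4a have close relatives with which reads may be shared, so their values are uncertain. A rise was called for 8.64% of all tested genes. Of 10 macrophage and monocyte genes 6 rose, 1 fell and 3 did not pass. Among them C1qa, a complement gene of tissue macrophages, stood at 33.6 ± 0.116 and 56.8 ± 3.15 FPKM and Lyz2, lysozyme, fell from 335 ± 3.51 to 238 ± 42.4. The summed level of these 10 genes was 453 to 456 FPKM in int 2 and 362 to 497 in int 3. Most of that sum was Lyz2, at 331, 338 and 335 FPKM in the int 2 libraries against 234, 197 and 282 in those of int 3. None of the 10 genes was at 0, and their part in the rises of Fcgr2b, Lilrb4a and Pirb was not tested.

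**Figure D3:**
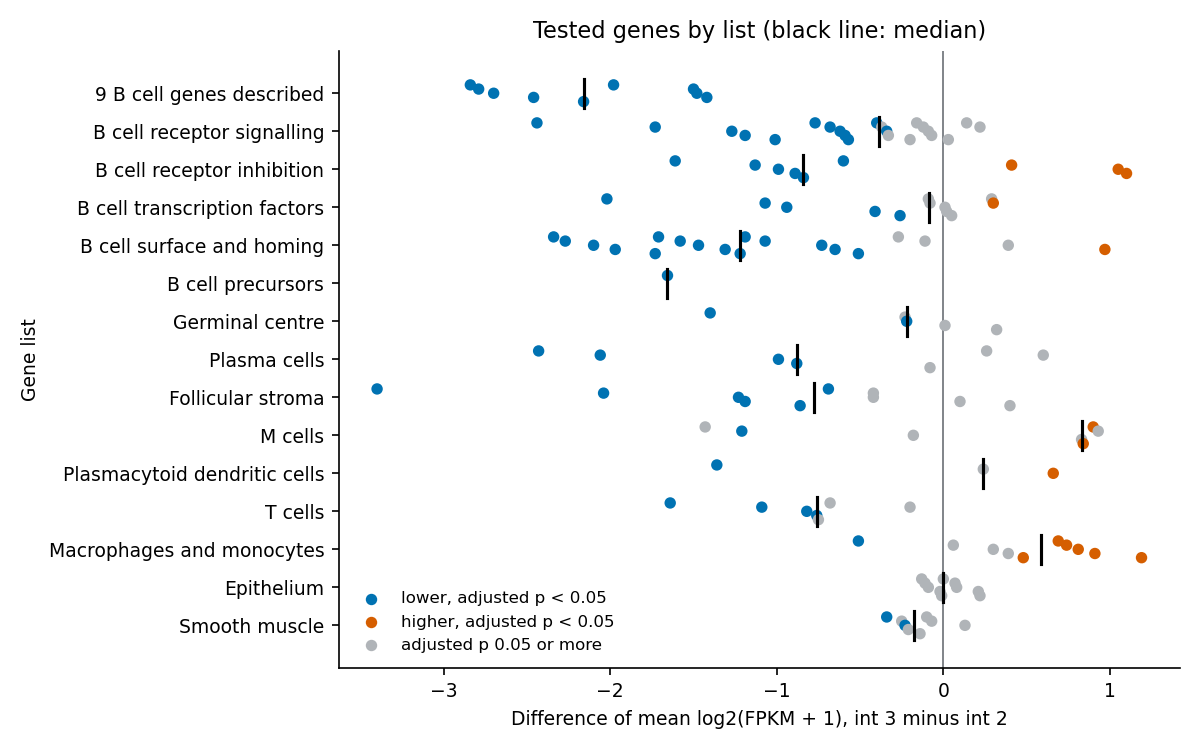
Log2 change (difference of mean log2(FPKM + 1), int 3 minus int 2) of each tested gene by list, blue where it fell, orange where it rose and grey where it did not pass, with the list's median as a black line. The 9 genes lie between -2.84 and -1.42, and the epithelial list lies about 0 with no gene that passed.

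Other transcription factors of the B lineage did not move as one. Of 12 tested 5 fell, 1 rose and 6 did not pass, with a median of -0.09. The Ikaros family genes Ikzf1 and Ikzf3 fell from 3.50 ± 0.220 to 1.17 ± 0.402 FPKM and from 1.62 ± 0.0860 to 0.388 ± 0.271, the latter tested through int 2 alone (limma adjusted p = 0.0066 and 0.0107), and Irf8, which macrophages and dendritic cells also use, rose from 24.7 ± 0.496 to 30.8 ± 2.95 (limma adjusted p = 0.0442). Id3 and Klf2, the most abundant of the list, did not pass (limma adjusted p = 0.964 and 0.819). Without 1 of int 2-1, int 2-2, int 2-3 and int 3-1 the count that fell was 1. Chosen after the values were seen, Pou2af1, the B cell coactivator of OCT factors, stood at 10.1, 11.7 and 10.8 FPKM in the int 2 libraries against 2.54, 0.412 and 3.97 in those of int 3 (log2 change -2.02, limma adjusted p = 0.0286). Ebf1, which acts upstream of Pax5 in B cell development and is also made by stromal cells, was below the filter at 0.259, 0.240 and 0.253 FPKM in the int 2 libraries against 0.184, 0.287 and 0.187 in those of int 3, with overlapping groups.

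Surface, survival and homing genes of B cells were mostly lower. Of 19 tested 15 fell, 1 rose and 3 did not pass, with a median of -1.22, and 4 fell without int 2-1, int 2-2, int 2-3 or int 3-1. The chemokine receptor gene Ccr7, which naive T cells also use, fell from 4.27 ± 0.863 FPKM by 1.22 on the log2 scale (limma adjusted p = 0.0037). The most abundant genes of the list did not fall, since Cd38, an enzyme of many cell types, rose from 44.6 ± 1.89 to 88.6 ± 10.5 FPKM (limma adjusted p = 0.0020) and Cd24a, also an epithelial gene, stood at 164 ± 2.95 and 163 ± 70.5. S1pr1, a receptor for exit from lymphoid tissue that vessels also carry, stood at 9.87 ± 0.344 and 13.5 ± 3.24 and did not pass (limma adjusted p = 0.154).

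Genes of B cell stages before and after the mature cell were compared in the same way. Of 7 precursor genes 5 were in the table and 1 was tested. That gene, Vpreb3, which mature B cells also express, fell from 3.43 ± 0.0966 to 0.451 ± 0.491 FPKM (limma adjusted p = 0.0068), and it passed the filter through int 2 alone. Rag2 was listed at 0 except for 0.0595 FPKM in int 3-1, Dntt did not exceed 0.0136 FPKM in any library, and Rag1 and Igll1 were listed at 0 throughout. Of 5 tested germinal centre genes 2 fell, and 1 without int 2-1, int 2-2, int 2-3 or int 3-1. Rgs13, which limits chemokine signals in germinal centre B cells and is also a tuft and mast cell gene, fell from 2.74 ± 0.149 to 0.435 ± 0.295 FPKM (limma adjusted p = 0.0033) and also met the filter through int 2 alone. Its highest int 3 library was int 3-2, the lowest for each of the 9 genes. Mki67, a proliferation gene of all dividing cells, fell from 17.9 ± 0.460 to 15.2 ± 0.495 (limma adjusted p = 0.0347). Among 7 tested genes of plasma cells 4 were called lower, and 1, 1, 1 and 2 without int 2-1, int 2-2, int 2-3 and int 3-1. Irf4 stood at 1.69, 1.64 and 1.90 FPKM in the int 2 libraries against 0.398, 0.153 and 0.643 in those of int 3, and met the filter through int 2 alone (limma adjusted p = 0.0072). Xbp1 and Sdc1, both also epithelial, did not pass (limma adjusted p = 0.156 and 0.735). Below the filter and untested, Prdm1 stood at 0.194 ± 0.0354 FPKM in int 2 and higher, at 0.630 ± 0.104, in int 3. Tnfrsf17, also below it, stood at 0.794 ± 0.186 and lower, at 0.242 ± 0.0604. None of the listed immunoglobulin constant genes was found under its symbol in the values used here, so they could not be analysed.

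Genes of cell types that lie in the follicle beside B cells, or that also use Spib, did not all fall. Of 10 tested genes of follicular stroma and lymphoid organisation 6 fell and 4 did not pass, and 2 fell without int 2-1, int 2-2, int 2-3 or int 3-1. Ccl21a, a chemokine for naive lymphocytes with near-identical gene copies that make its value uncertain, stood at 112, 107 and 107 FPKM in the int 2 libraries against 46.0, 41.2 and 54.7 in those of int 3 and fell (limma adjusted p = 0.0014), as did Mfge8, a gene of follicular dendritic cells and other cells (146 ± 1.37 to 82.0 ± 23.5, limma adjusted p = 0.0338), and Glycam1, a vessel gene at the filter in int 2 alone (limma adjusted p = 8.2e-05). Cxcl13, the chemokine that draws B cells into follicles, stood at 45.8, 43.0 and 42.6 FPKM in the int 2 libraries against 38.4, 15.0 and 58.5 in those of int 3. Its groups overlapped and it did not pass (limma adjusted p = 0.549), although its order within int 3 was that of the B cell genes. The list summed to 367 to 376 FPKM in int 2 and 137 to 254 in int 3, no member was at 0, and its part in the values of Cr2 and Fcer2a was not tested.

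Of 7 tested M cell genes 1 fell, 2 rose and 4 did not pass. Gp2, a bacterial uptake receptor of mature M cells, stood at 1.29, 1.78 and 1.96 FPKM in the int 2 libraries against 0.148, 0.237 and 0.0718 in those of int 3 and fell (limma adjusted p = 0.0023), while Tnfaip2 and Aif1, both also macrophage genes, rose (limma adjusted p = 0.0020 and 0.0022). Gp2 met the filter through int 2 alone, and its order within int 3 was the reverse of that of the B cell genes. The 8 listed M cell genes summed to 69.4 to 74.0 FPKM in int 2 and 74.9 to 115 in int 3. Only 3 of 8 genes listed for plasmacytoid dendritic cells could be tested, of which Bst2, an interferon-induced gene, rose, Klk1, a secreted protease, fell and Tcf4 did not pass. Siglech, the most specific of that list, was below the filter at 0.510 ± 0.0662 FPKM in int 2 against 0.0580 ± 0.0147 in int 3. The list summed to 1132 to 1178 FPKM in int 2 and 462 to 534 in int 3, and no member was at 0 in every library. Nearly all of that sum was Klk1, at 1111 ± 22.6 and 434 ± 26.2 FPKM, whose gene family may share reads. At a level so far above that of Siglech, neither the fall of Klk1 nor the sum is a measure of these cells. The part of M cells and plasmacytoid dendritic cells in the Spib level was not tested.

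T cell genes were lower in part. Of 7 tested 4 fell and 3 did not pass, with a median of -0.76. Lck, which encodes a kinase next to the T cell receptor, fell from 4.60 ± 0.209 to 2.32 ± 0.224 FPKM and Cd2 from 7.01 ± 0.116 to 1.63 ± 0.680 (limma adjusted p = 0.0024 and 0.0041). Cd3g, a chain of the T cell receptor complex, stood at 4.96, 4.37 and 4.49 FPKM in the int 2 libraries against 2.26, 1.12 and 4.32 in those of int 3 and did not pass (limma adjusted p = 0.157). The tested T cell genes kept a median of 39.0%, 29.9% and 51.7% of their int 2 mean in int 3-1, int 3-2 and int 3-3, where the 9 B cell genes kept 15.8%, 3.24% and 30.5%. That difference between the lists was not tested. The 12 T cell genes in the table summed to 30.3 to 31.8 FPKM in int 2 and 9.22 to 19.0 in int 3, and none was at 0. Of 8 smooth muscle genes 2 fell, Des and Cnn1, by 0.34 and 0.23 on the log2 scale (limma adjusted p = 0.0075 and 0.0298), and 6 did not pass. Without int 2-1, int 2-2, int 2-3 or int 3-1 neither of these passed, nor did Irf8, Lyz2 or Bst2, whose adjusted p in limma reached 0.166, 0.153 and 0.146 over 14 alternatives.

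The genes whose pattern over the 6 libraries was most like that of the 9 were found by Pearson correlation with the mean of the 9 scaled genes, among 11942 tested genes. The 8 with the highest correlation, 0.9990 to 0.9997, included Jchain, Aqp8, Cd53, Pccb, Naaladl1, Ctsh and Hid1. The gap between the groups weighs heavily in a correlation over 6 libraries, and 143 genes had a correlation above 0.99, so the values are a description without a p. Jchain, the joining chain of secreted IgA and IgM, kept 20.8%, 9.81% and 29.8% of its int 2 mean in int 3-1, int 3-2 and int 3-3. Naaladl1, which is on none of the gene lists, kept 18.1%, 5.90% and 29.2% in these libraries (log2 change -2.24). Aqp8, Cd53 and Pccb had the same pattern with a smaller size. Aqp8, a water channel of colonic epithelium, kept 52.6%, 39.1% and 62.9%, and Cd53, a membrane protein of white blood cells, kept 49.1%, 35.8% and 59.9%. Pccb, an enzyme of propionate breakdown in mitochondria, kept 79.8%, 71.2% and 83.7%.

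The calls for the 9 genes did not all rest equally firmly on these libraries. Cd22, Fcer2a and Spib passed in limma's test under each of 14 alternatives, with adjusted p of up to 0.0285, 0.0120 and 0.0201. Cd79a did not pass in 8 of 14, with adjusted p of 0.00078 to 0.138 over all of them, and Ms4a1 did not in 7, with 0.0013 to 0.107. For Cd79b and Fcmr 4 alternatives did not pass, for Pax5 5 and for Cr2 6. The direction held for all 9 genes in each alternative, which is no sign of stability where the groups do not overlap.

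**Figure D4:**
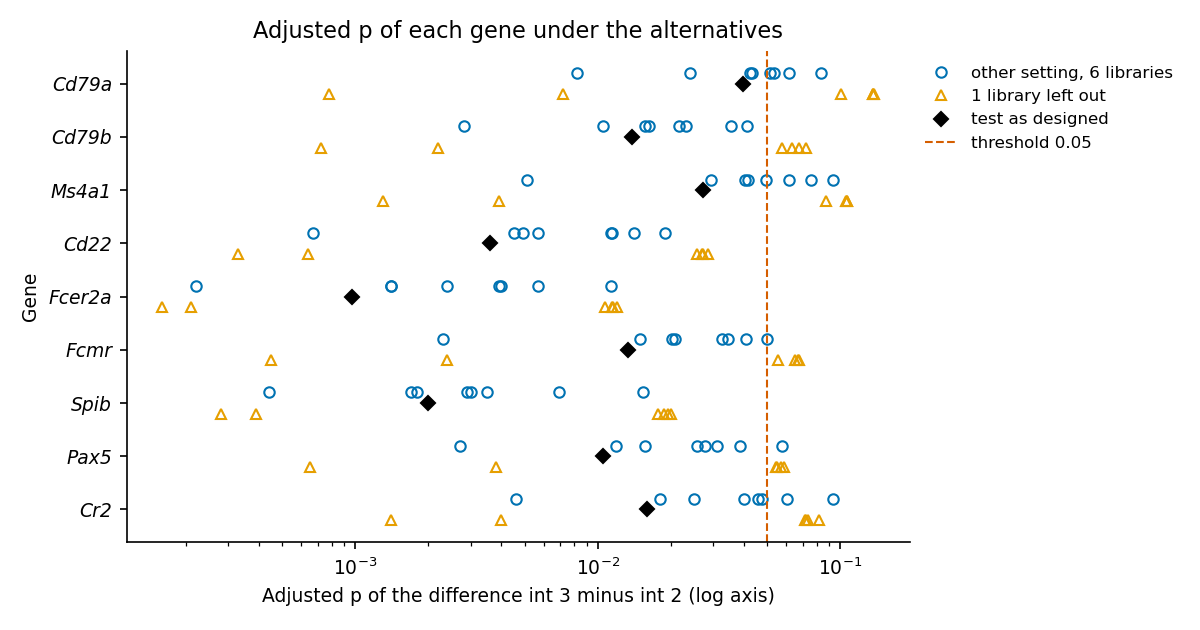
Adjusted p (log axis) of each of the 9 genes in the test as designed (diamond), under 8 other settings with all 6 libraries (circles) and with 1 library left out (triangles), with the threshold of 0.05 as a dashed line. Cd22, Fcer2a and Spib lie left of the threshold throughout, and the other 6 genes cross it when certain libraries are left out. Cd79a, Ms4a1, Pax5 and Cr2 also cross it under some settings with all 6 libraries.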

How the data were processed

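RNA of 6 mouse large intestine samples was isolated with TRIzol, and the VAHTS Universal V10 kit was used for the libraries, per the labels' protocols. What the authors deposited is an FPKM value per library for 35434 gene symbols, a unit read from the table's name and values. Per the submitters' processing notes, GRCm39 was the build used. Which aligner, counting tool and annotation were used, and how strand and shared reads were handled, is not given in the sources used here. Columns were matched to samples by title. Steps in the FPKM values gave back whole fragments for 12379 of 12525 tested genes (98.8%, tolerance 0.01 fragments), which served for depth, Poisson intervals and 1 alternative test. The 9 genes and the 15 other gene lists were chosen with earlier results of these data known.

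The difference int 3 minus int 2 was fitted across all 12525 genes with limma 3.58.1 under R 4.3.3 (lmFit and trended eBayes, pseudocount 1, two-sided, Benjamini-Hochberg). No block was used, since the labels do not say that replicate numbers mark a shared animal or batch. Named genes of each list were the 3 with the highest mean FPKM and the 2 with the smallest p in each direction among those that passed, beside all 9 members, Hoxb13 and the 8 most similar genes. Blk, Lyn, Pou2af1, Ebf1, Siglech, Pirb, Rag1, Igll1, Prdm1 and Tnfrsf17 were named after their values were seen. Some genes that the rule names are not reported here. Of 178 listed symbols 166 were in the table. Alternatives were other pseudocounts (0.1 and 0.01), no filter, TPM and median-of-ratios scaling, the replicate block, 1 weight per group, voom on whole fragments and leaving out each library. Promoter sequences are from RefSeq (GRCm38.p6). Python 3.11.15, pandas 2.3.3 and scipy 1.17.1 were used for summaries and matplotlib 3.10.9 for figures.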

Additional observations from a re-analysis of the deposited data

How the results depend on the processing

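All 9 genes fell in limma's test, and the count was 5 with a pseudocount of 0.01, 6 with one of 0.1, 7 without a filter and 9 with TPM scaling, median-of-ratios scaling, 1 weight per group or voom. With 1 library left out it was 3 to 9, and the count of receptor signalling genes that fell, 12 of 22, was 4 to 14. With the replicate number as a block 8 of the 9 passed, all but Cd79a (limma adjusted p = 0.0615), and 889 in place of 1921 genes were called in all. Deviations of samples with the same number were not correlated (-0.01, 0.00 and -0.02 for numbers 1, 2 and 3). Over 3 numbers, with so little spread within int 2, this cannot decide whether the numbers mark a shared animal or batch. With a pseudocount of 0.1 or 0.01 Cd79a, Ms4a1 and Cr2 did not pass, and with 0.01 neither did Pax5. Calls lower over all genes, 839, were 373 with the block and 241 to 1789 with 1 library left out. Calls higher, 1082, were 516 and 372 to 3124. The share of calls that were higher was 56.3%, and 66.6% with TPM scaling, which moved the median of all genes from 0.03 to 0.10. The cause of these shifts was not tested. Depth limits the lowest values, since 13 to 75 fragments stand behind 8 of the 9 genes in int 3-2.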
